A study of Mus musculus with 4 samples.

Results

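Histone deacetylases remove acetyl groups from lysines of histones and of many other proteins, and acetylated histones mark open, transcribed chromatin. The short-chain fatty acids butyrate and propionate, made by gut bacteria from fibre, inhibit several of these enzymes inside cells and also act from outside through receptors such as Ffar2. The genes described here are the 10 genes named Hdac1 to Hdac10, which were picked by symbol from 55450 gene rows, and all 10 were found. Class I holds Hdac1, Hdac2, Hdac3 and Hdac8, nuclear enzymes that are the usual targets of butyrate. Class IIa holds Hdac4, Hdac5, Hdac7 and Hdac9, large proteins with weak enzyme activity that bind MEF2 transcription factors and move out of the nucleus when kinases phosphorylate them. Class IIb holds Hdac6, a cytoplasmic deacetylase of tubulin, and Hdac10, a deacetylase of polyamines, and both are commonly described as little affected by butyrate. Read counts measure the transcripts of these genes, so enzyme activity, its inhibition and histone acetylation were not measured.

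RNA came from cells of mesenteric lymph nodes of wild-type C57BL/6J mice, with 2 nodes pooled per sample, enriched for the dendritic cell integrin CD11c with magnetic beads. Each pool's cells were split over 2 wells and cultured for 6 h, the control well with water and the other with an Ffar2 agonist at 10 µM, a compound the labels do not name. There were 2 control and 2 agonist libraries, numbered 2 and 3 in each group, and the number is called the pool below. The age and sex of the mice are not given in the labels. Both libraries of pool 2 had Xist reads (17776 and 21194) and no Ddx3y reads, and both of pool 3 had Ddx3y reads (18752 and 21461) and no Xist reads. The pools thus differed in sex-linked transcripts as female and male mice do.

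Between 43238375 and 59902172 reads of a library were assigned to genes. Itgax, the gene of CD11c, had 95.5 to 189 CPM (counts scaled to a common library total), and the migratory dendritic cell receptor Ccr7 had 7374 to 13384 CPM. All 10 T cell markers and all 8 B cell markers on the lists used were also read. For pools 2 and 3 the T cell markers summed to 1341 and 791 CPM without agonist and 1070 and 680 CPM with it, and the B cell markers to 784 and 427 CPM and to 689 and 358 CPM. Transcripts of lymphocyte markers were thus read in all 4 libraries, and in RNA of many cells fewer cells of a type and less RNA per cell cannot be told apart. The 5 plasmacytoid dendritic cell markers summed to 443 to 962 CPM, the 5 NK cell markers to 127 to 161 CPM and the 5 monocyte and macrophage markers to 398 to 693 CPM. The 4 neutrophil markers summed to at most 3.88 CPM, with Ly6g at 0 in every library.

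The start regions of the genes differ in sequence type, and 3 are shown because they belong to the members whose values are described most closely below or that stand at the low end of the family. RefSeq windows for GRCm38.p6 were matched for 7 of the 10 genes, 11 windows in all, and the 250 bases before each annotated start were searched on both strands. The letters searched were GGGCGG, known as the GC box of SP1 and held by 32.7% of 32817 such windows, CCAAT, the box of NF-Y (33.8%), TATAAA, the box of the TATA-binding protein (12.4%), and CCGGAAG, a core site of ETS factors (6.9%). Capitals mark matches to any of these.
Hdac2, chr10:36974294-36974543, plus strand: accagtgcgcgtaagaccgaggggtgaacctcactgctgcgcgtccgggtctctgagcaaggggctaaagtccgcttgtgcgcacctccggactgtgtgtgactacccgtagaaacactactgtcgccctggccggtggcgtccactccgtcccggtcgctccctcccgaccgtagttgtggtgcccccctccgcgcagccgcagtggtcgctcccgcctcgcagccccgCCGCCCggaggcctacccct
Hdac6, chrX:7947890-7948139, minus strand: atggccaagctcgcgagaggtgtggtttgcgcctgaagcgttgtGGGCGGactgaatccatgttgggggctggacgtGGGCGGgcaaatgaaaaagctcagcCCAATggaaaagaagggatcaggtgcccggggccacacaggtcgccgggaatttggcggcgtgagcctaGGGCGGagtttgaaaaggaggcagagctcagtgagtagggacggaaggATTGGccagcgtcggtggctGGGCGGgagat
Hdac9, chr12:34917096-34917345, minus strand: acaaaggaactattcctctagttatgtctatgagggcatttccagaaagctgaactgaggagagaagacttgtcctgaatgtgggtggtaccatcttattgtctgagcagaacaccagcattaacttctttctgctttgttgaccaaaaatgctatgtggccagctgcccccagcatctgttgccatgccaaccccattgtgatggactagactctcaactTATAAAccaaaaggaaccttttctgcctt
The Hdac2 window had 68.8% G and C, an observed to expected CpG ratio of 0.931 and 1 GC box. The Hdac6 window had 61.2% G and C, a CpG ratio of 0.843, 4 GC boxes and 2 CCAAT matches, the nearest GC box starting 11 bases before the annotated start. The Hdac9 window had 44.4% G and C, no CpG at all and 1 TATAAA match that starts 29 bases before the annotated start. Over all windows the medians were 52.4% and 0.373. A second annotated Hdac9 start on chromosome 12 (window 34528890 to 34529139) had 43.6% G and C, a CpG ratio of 0.175 and none of these letters. Counts per gene do not show which start was used, and a match describes letters, not a binding site.

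Class I genes carried most of the family's transcripts in every library, and within class I the levels of Hdac1 and Hdac3 stood far above those of Hdac2. Levels of different genes were compared as RPKM, the reads of a gene divided by the length of its merged annotated exons and by the library total. Hdac1, the catalytic subunit of the Sin3, NuRD and CoREST corepressor complexes, had 48.8 and 55.3 RPKM without agonist (pools 2 and 3) and 44.1 and 55.97 RPKM with it. It was the highest of the 10 genes in all 4 libraries (ENSMUSG00000028800.15, chromosome 4, 129516104 to 129542713, GRCm38). Hdac3, the enzyme of the NCoR and SMRT corepressors, had 26.4 and 27.7 RPKM without agonist and 23.4 and 31.8 RPKM with it and was next in all 4 (ENSMUSG00000024454.16, chromosome 18, 37935844 to 37955016). Hdac8, an X-linked enzyme that deacetylates the cohesin subunit Smc3, ranged from 3.04 to 3.89 RPKM (ENSMUSG00000067567.12, chromosome X, 102284639 to 102505359).

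Hdac2, the close paralog of Hdac1 that sits in the same complexes, was far lower, with 0.965 and 1.37 RPKM without agonist and 1.51 and 1.91 RPKM with it (ENSMUSG00000019777.16, chromosome 10, 36974544 to 37001889). The level of Hdac1 was 29.2 to 50.6 times that of Hdac2 within a library. With coding length in place of exon length the ratio was 22.7 to 39.5, and with the longest transcript 35.8 to 62.1, so the order of the paralogs did not depend on the length used. Reads that align to more than 1 place were not counted. A processed pseudogene of Hdac1 on chromosome 17 (Gm10093, 78491582 to 78493025) had 92 to 186 reads per library against 7325 to 10937 for Hdac1. Reads that align to both copies are among those not counted, and their number is not known, so the level of Hdac1 may be understated.

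Class IIb came next as a class, though with coding length Hdac8 of class I averaged above both of its genes. Hdac6 (ENSMUSG00000031161.15, chromosome X, 7930120 to 7947889) had 7.93 and 8.40 RPKM without agonist and 4.47 and 9.55 RPKM with it. Hdac10 (ENSMUSG00000062906.12, chromosome 15, 89123307 to 89128700) had 9.11 and 6.65 RPKM without agonist and 8.16 and 4.09 RPKM with it. Hdac10 was above Hdac6 in both libraries of pool 2 and below it in both libraries of pool 3, and their means over the 4 libraries, 7.002 and 7.589 RPKM, did not differ beyond that spread.

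Class IIa genes were low throughout, at 0.567 to 1.79 RPKM. Hdac4 averaged 1.58 ± 0.239 RPKM (SD, n = 4 libraries), Hdac5 1.23 ± 0.162, Hdac9 0.887 ± 0.206 and Hdac7 0.771 ± 0.215. For Hdac4 (chromosome 1, 91928779 to 92195699) 22.4% of exon bases are shared with Gm26720, a noncoding gene on the opposite strand with 0 reads in every library. Reads that overlap several genes were not counted, so the level of Hdac4 may be understated. Hdac9 (chromosome 12, 34047580 to 34917095) also makes a short form without the catalytic domain, which counts per gene do not separate. Hdac7 (chromosome 15, 97792664 to 97844502) was the least abundant member by mean and had 200 to 308 reads per library, a counting error of 5.7% to 7.07%.

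**Figure D1:**
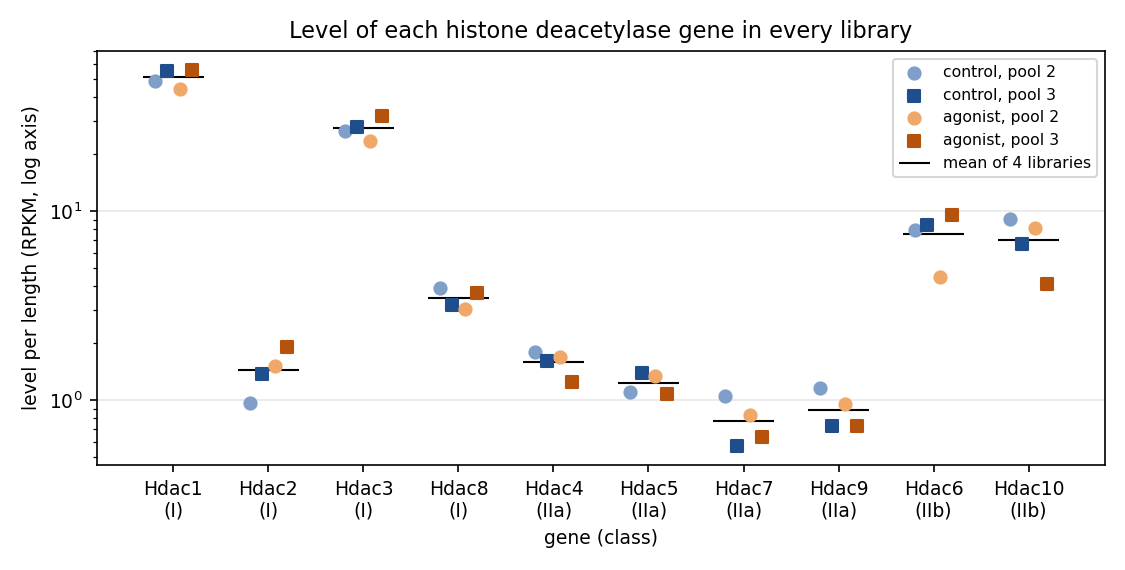
Level per length (RPKM, log axis) of the 10 genes in each of the 4 libraries, by class. Points are single libraries and black lines are means of 4. Hdac1 lies between 44.1 and 55.97 and Hdac3 between 23.4 and 31.8, while all class IIa points lie at or below 1.79.

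In order of mean level the genes were Hdac1, Hdac3, Hdac6, Hdac10, Hdac8, Hdac4, Hdac2, Hdac5, Hdac9 and Hdac7. Of the 9 pairs of neighbours in this order, 4 had ranges over the 4 libraries that did not overlap: Hdac1 and Hdac3, Hdac3 and Hdac6, Hdac10 and Hdac8, and Hdac8 and Hdac4. The place of Hdac8 depended on the length used. With coding length its mean of 14.8 RPKM was above those of Hdac6 (12.8) and Hdac10 (11.8). With the longest transcript the ranges of Hdac10 and Hdac8 overlapped. With exon length the other 5 pairs overlapped, among them every pair from Hdac4 down to Hdac7. Class I made up 78.4% and 81.9% of the summed level of the 10 genes without agonist and 80.5% and 84.3% with it. Class IIb made up 16.7% and 14.1% against 14.1% and 12.3%, and class IIa 4.98% and 3.999% against 5.36% and 3.32%. All 4 libraries thus had the same order of classes. The shares of all 3 classes overlapped between the conditions. Within each pool the agonist well had the higher share of class I and the lower share of class IIb, which was not tested. The share of class IIa was higher with agonist in pool 2 and lower in pool 3. Together the 10 genes took 399 to 446 CPM on the scale of unadjusted library totals.

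**Figure D2:**
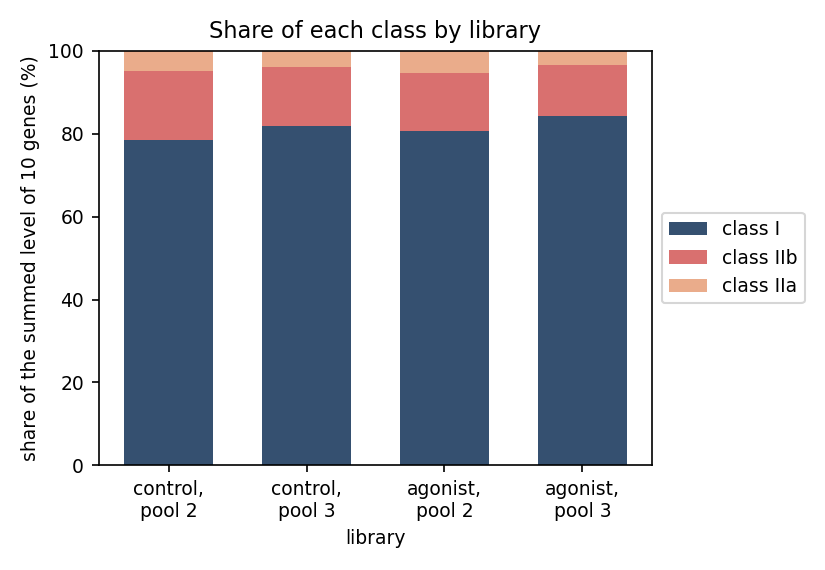
Share of each class in the summed level per length of the 10 genes (percent), 1 bar per library. Class I takes 78.4% to 84.3%, class IIb 12.3% to 16.7% and class IIa 3.32% to 5.36%.

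The agonist comparison addresses whether these transcripts differed after 6 h with the compound. No well separates action through Ffar2 from other actions of the compound. None of the 10 genes passed the test of agonist against control, which used group alone, so the difference between the pools counted as error. All 10 passed the filter on low counts, and 0 passed edgeR's quasi-likelihood test at an adjusted p of 0.05, against 0% of 18297 genes. At an unadjusted p under 0.05 the count was again 0 of 10, against 1.58% of all genes, and DESeq2 and limma-voom also called 0 of the 10. With the pool as a term every member's SE was smaller, as for Hdac6 (0.31 against 0.41) and Hdac10 (0.30 against 0.42). In that fit 0 of 10 members again had an edgeR unadjusted p under 0.05, against 645 of 18297 genes. In the test by group alone the edgeR adjusted p was 0.9999 for every member. On simulated data that test recovered 0 of 63 2-fold changes, so 0 calls do not show that levels were unchanged. Over the members the log2 fold changes had a median of -0.11, and over all tested genes one of -0.05. Nothing in the labels says that the libraries of a group came from independent experiments beyond separate pools, so p-values measure the spread between these wells and pools.

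The precision of the test differed between members, and the intervals of Hdac1 and Hdac3 were the narrowest. Hdac1 gave 168 and 191 CPM without agonist (pools 2 and 3) and 152 and 193 CPM with it, so the groups overlapped. The fitted log2 fold change was -0.06 (SE 0.27), and the 95% interval of -0.71 to 0.60 corresponds to 0.609 to 1.51 times the control level. Hdac3 gave 107 and 112 CPM without agonist and 95.05 and 129 CPM with it, and both agonist values lay outside the control range, on opposite sides. The fitted log2 fold change was 0.03 (SE 0.28, 95% interval -0.65 to 0.71, or 0.636 to 1.64 times the control).

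Hdac2 was the single member whose groups did not overlap. Without agonist there were 188 and 321 reads (4.32 and 6.15 CPM), and with it 352 and 484 reads (6.77 and 8.53 CPM). Both agonist libraries lay above both controls, which holds for 11.4% of all tested genes. The mean was 5.23 ± 1.29 CPM without agonist and 7.65 ± 1.25 CPM with it (SD, n = 2). The difference within a pool was 0.64 in pool 2 and 0.47 in pool 3 on the log2 scale. The fit gave 0.55 on the log2 scale (SE 0.41, 95% interval -0.44 to 1.54), which did not pass (edgeR unadjusted p = 0.227, adjusted p = 0.9999). It was positive in all 11 alternative settings, from 0.32 to 0.90. These settings reuse the same 4 libraries, whose groups did not overlap, so the kept sign is no further evidence of a rise. No member had both agonist libraries below both controls, against 13.5% of all genes.

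Hdac6 and Hdac10 had the largest differences within a single pool, each in another pool. In pool 2 Hdac6 gave 46.1 CPM without and 26.0 CPM with agonist, a log2 difference of -0.83, while in pool 3 it had 48.9 and 55.6 CPM, a difference of 0.19. The library of the agonist well of pool 2 was therefore the low one among 4, and the groups overlapped. The fit gave -0.22 on the log2 scale (SE 0.41, 95% interval -1.21 to 0.77), but 0.26 without agonist replicate 2. Hdac10 had 30.8 and 27.6 CPM in pool 2, a difference of -0.16, and 22.5 and 13.8 CPM in pool 3, a difference of -0.70. Its fitted value was -0.36 (SE 0.42, 95% interval -1.39 to 0.66), and 0.046 without agonist replicate 3.

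Some cell type markers had the same order over the libraries as these genes. The 8 dendritic cell markers, of which Ccr7 makes up most, summed to 10581 and 12896 CPM without agonist and 8035 and 14068 CPM with it, lowest where Hdac6 was lowest and highest where it was highest. Of that list Ccr7 and Xcr1 had the order of Hdac6, and Flt3, Zbtb46, Clec9a, Cd209a, Itgax and Sirpa had another. Itgax was lowest, at 95.5 CPM, where Hdac6 was highest. Sirpa was highest, at 85.0 CPM, where Hdac6 was lowest. The small neutrophil sum, at most 3.88 CPM, also had the order of Hdac6. The NK cell, plasma cell and monocyte and macrophage sums had the order of neither Hdac6 nor Hdac10. The summed T cell and B cell markers given above had the order of Hdac10 over the libraries, as had those of plasmacytoid dendritic cells and of stromal and endothelial cells. Some genes of these lists had another order: Ccr9 was highest, at 188 CPM, in the control well of pool 3, and Ms4a1 lowest, at 45.5 CPM, in the agonist well of pool 2. The stromal and endothelial sum was mostly Pecam1, at 45.0 to 96.8 CPM, and every other gene of that list had at most 1.41 CPM. The part of these cells in the values of Hdac6 and Hdac10 was not tested.

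For the class IIa genes and Hdac8 the fitted values were between -0.22 and -0.04, with wide intervals. The log2 fold changes were -0.22 (SE 0.32) for Hdac4, -0.04 (SE 0.36) for Hdac5, -0.14 (SE 0.48) for Hdac7, -0.17 (SE 0.39) for Hdac9 and -0.08 (SE 0.32) for Hdac8. Hdac4 was lower in the agonist well of both pools, by 0.09 and 0.37 on the log2 scale in the plain difference of the wells. Hdac5 was higher by 0.29 in pool 2 and had a difference of -0.37 in pool 3. In 6 of the 10 members the difference pointed in opposite directions in the pools, as it did in 51.1% of all tested genes. Hdac2 and Hdac4 kept their direction in all 11 alternative settings, though Hdac4, itself within 1 SE of 0, came to -0.018 without agonist replicate 3. The other 8 members, also within 1 SE of 0, turned in at least 1 setting.

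**Figure D3:**
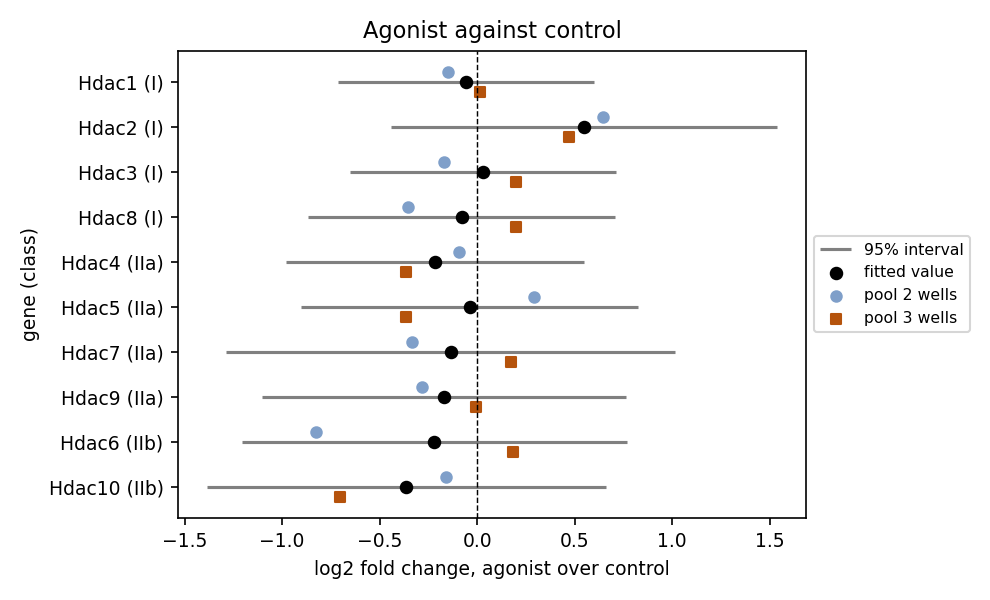
Log2 fold change of agonist over control for the 10 genes. Black points are edgeR fits with 95% intervals from 4 libraries, and coloured points are the differences within pool 2 and within pool 3. Every interval crosses 0, and Hdac6 shows the widest gap between the pools (-0.83 and 0.19).

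In the comparison of the pools again none of the 10 members passed the test. Each pool was represented by its control and its agonist well, and the comparison of pool 3 with pool 2, with treatment as a term, shows how far the family varied between sources of cells that also differed in sex. It sets 1 pool against 1 pool, and the p-values then rest on wells of the same 2 pools. In edgeR's test 0 of 10 members passed, against 0.394% of all genes (72 of 18297). At an unadjusted p under 0.05 there was 1 member, Hdac10, against 13.9% of all genes, and DESeq2 and limma-voom called 0 members.

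Pool 3 lay wholly above pool 2 for Hdac1, Hdac3 and Hdac6 and wholly below it for Hdac4, Hdac7, Hdac9 and Hdac10. These counts of 3 and 4 of 10 compare with 24.0% and 25.2% of all tested genes, and a difference from that background was not tested. For Hdac10 the pools had 29.2 ± 2.26 and 18.1 ± 6.13 CPM (SD, n = 2 wells), with a log2 difference of -0.73 for pool 3 over pool 2 (SE 0.30, 95% interval -1.41 to -0.04, edgeR adjusted p = 0.327). With no term for treatment, it was -0.37 without agonist replicate 3 and -1.09 without control replicate 3. For Hdac6 they had 36.1 ± 14.2 and 52.2 ± 4.74 CPM, with a log2 difference of 0.59 (SE 0.31, adjusted p = 0.453). Without control replicate 2, and with no term for treatment, the Hdac6 difference was 1.01 and passed (edgeR adjusted p = 0.0444). That value rests on the single agonist well of pool 2, and without that well the difference was 0.20 (adjusted p = 0.554).

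Within class IIa both wells of pool 2 were the higher ones for 3 of 4 genes, a pattern that 25.2% of all tested genes had. Hdac7 gave 7.07 and 5.597 CPM in the wells of pool 2 (control, then agonist) and 3.83 and 4.32 CPM in those of pool 3, a log2 difference of -0.63 (SE 0.39, edgeR adjusted p = 0.525). Hdac9 had 16.9 and 13.9 CPM in pool 2 and 10.64 and 10.61 CPM in pool 3, a log2 difference of -0.53 (SE 0.32, adjusted p = 0.510). For Hdac4 the log2 difference was -0.30 (SE 0.29), and for Hdac5 it was 0.0029 (SE 0.34). The summed markers of T cells, B cells, plasmacytoid dendritic cells, monocytes and macrophages, and stromal and endothelial cells (mostly Pecam1) were also lower in both wells of pool 3. Some of their genes were not: Ccr9 was highest, at 188 CPM, in the control well of pool 3, and Adgre1, at 41.1 CPM, in its agonist well. The part of those cells in the class IIa values was not tested.

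The pool differences of the X-linked members Hdac6 and Hdac8 were unlike in size, and neither passed the test. The contrast between these genes was not itself tested. Hdac8 had a log2 difference of -0.01 (SE 0.32, 95% interval -0.72 to 0.71), against 0.59 for Hdac6. The median over 415 tested X-linked protein-coding genes was 0.06, and 0 of them passed in either direction, apart from noncoding genes such as Xist that are not in this set. For Hdac1 and Hdac3 the differences of 0.26 (SE 0.23) and 0.25 (SE 0.24) and for Hdac2 that of 0.42 (SE 0.36) did not pass the test, and the pools overlapped for Hdac2 but not for Hdac1 and Hdac3.

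**Figure D4:**
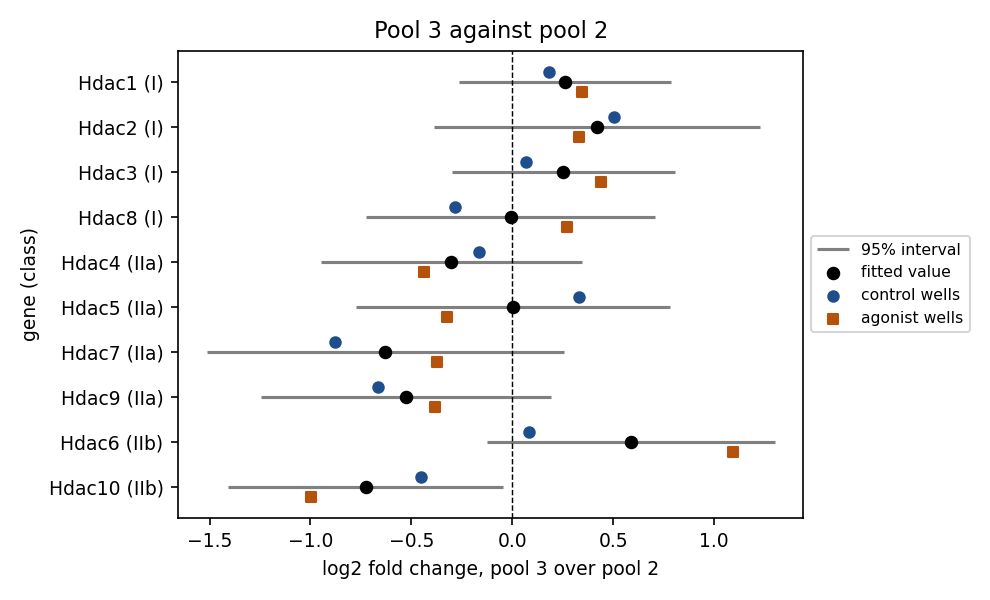
Log2 fold change of pool 3 over pool 2 for the 10 genes. Black points are edgeR fits with 95% intervals, and coloured points are the differences within the control wells and within the agonist wells. Of the 10 intervals that of Hdac10 does not cross 0, from -1.41 to -0.04, though its difference was -0.37 without agonist replicate 3.

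Hdac10 had the widest range of the 10 over the 4 libraries, 1.15 log2 units, against a median of 0.60 for the members and 0.99 for all tested genes. The 3 protein-coding genes with the most similar pattern, out of 13085 compared over 4 libraries, were Dcbld2, Arhgap15 and Spata13. Their root mean square differences of centred log2 CPM from Hdac10 were 0.0240, 0.0289 and 0.0404. Arhgap15, a Rac GTPase-activating protein, gave 112 and 81.0 CPM without agonist and 100.5 and 47.9 CPM with it. With 4 libraries such likeness is a description, and 37 genes lay within 0.1 of Hdac10.

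Other deacetylases also gave 0 calls. Of Hdac11, the single class IV enzyme, and the 7 sirtuins, which need NAD and are not inhibited by butyrate, 8 of 8 were tested and 0 passed in either direction in the agonist comparison. Their median log2 fold change was -0.09. Sirt2, a cytoplasmic sirtuin, was the most abundant of them with a mean of 30.2 RPKM, between Hdac1 and Hdac3. Sirt7 was read 841 and 1557 times without agonist and 3000 and 1737 times with it, for a log2 fold change of 0.85 (SE 0.42, edgeR unadjusted p = 0.0872), 1.58 in pool 2 and 0.04 in pool 3. The high value was that of the agonist well of pool 2.

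The partners through which class I enzymes reach chromatin were well represented. Of 34 corepressor genes 33 were tested, 0 passed in either direction, and the median was -0.06. Rbbp7 and Rbbp4, histone chaperones shared by the Sin3 and NuRD complexes, were the most abundant, with means of 264 and 39.1 RPKM. Mbd3, a structural subunit of NuRD, was read 267 and 290 times without agonist and 148 and 179 times with it. The fitted log2 fold change was -0.96 (SE 0.42, edgeR unadjusted p = 0.0591, adjusted p = 0.9999), with -1.10 in pool 2 and -0.81 in pool 3. Its relative Mbd2, which binds methylated DNA, came out at -0.59 (SE 0.31). The agonist values of both lay below the controls. Mier2 had one of 1.04 (SE 0.52), from differences of 1.76 in pool 2 and 0.07 in pool 3.

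Enzymes with the opposite activity and the readers of the mark also gave 0 calls, with 13 of 13 acetyltransferases and 5 of 5 bromodomain genes tested. The medians were 0.09 and 0.02. Hat1, which acetylates newly made histone H4, and the coactivator Ncoa3 were the most abundant acetyltransferase genes on the list, with 65.4 and 48.0 RPKM. Kat6a came out at a log2 fold change of -0.63 (SE 0.29, edgeR unadjusted p = 0.0719), with -0.65 and -0.60 in the pools. Kat7 had one of 0.54 (SE 0.28), with 0.85 and 0.26. Among the readers Brd2 had one of 0.26 (SE 0.30).

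Of 23 genes for MEF2 factors and for the kinases and 14-3-3 proteins that move class IIa enzymes out of the nucleus, 22 were tested and 0 passed, with a median of 0.10. The exception was Prkd1, with 0 reads in every library. Taken by pool, the median was 0.38 for pool 2 and -0.05 for pool 3. The 14-3-3 genes Ywhaz and Ywhae were the most abundant, with 133 and 126 RPKM. Ywhaq had 4020 reads in the control and 9930 in the agonist well of pool 2, and 9582 and 12152 reads in pool 3, with a log2 fold change of 0.56 (SE 0.38). The kinase gene Camk1 had one of 1.14 (SE 0.65), from differences of 2.35 in pool 2 and -0.22 in pool 3. Control replicate 2 had the lowest count of each.

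Of 5 genes known to rise when deacetylases are inhibited 5 were tested, 0 passed, and the median was -0.24. Cdkn1a, the cell cycle inhibitor p21, was read 11324 and 16323 times without agonist and 10350 and 21794 times with it, with a log2 fold change of 0.03 (SE 0.37). H1f0, a linker histone, was read 132 and 372 times without agonist and 536 and 439 times with it. The fitted log2 fold change was 0.83 (SE 0.52, edgeR unadjusted p = 0.157), with 1.75 in pool 2 and 0.12 in pool 3. Gsn and Clu had log2 fold changes of -0.27 (SE 0.28) and -0.24 (SE 0.33). The 5 genes thus had no common direction.

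The genes through which short-chain fatty acids signal or enter cells were mostly low. Slc5a8, the sodium-coupled butyrate transporter, had 0 reads in every library, and Ffar3 had 14 reads in 1 library and 0 in the others. Slc16a3, a monocarboxylate transporter, averaged 15.7 RPKM and Slc16a1, the main butyrate carrier, 0.795 RPKM. Of 6 genes 4 were tested and 0 passed. The receptor Ffar2 had 176 and 202 reads without agonist and 89 and 116 with it, a log2 fold change of -1.07 (SE 0.47). Hcar2 had 155 and 85 reads without agonist and 44 and 17 with it, a log2 fold change of -2.18 (SE 0.77). The edgeR unadjusted p was 0.0587 for Ffar2 and 0.0295 for Hcar2, and the adjusted p 0.9999 for each. For each, both agonist libraries lay below both controls, as for 13.5% of all tested genes.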

How the data were processed

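RNA of 2 control and 2 agonist wells was sequenced from libraries made with the SMART-seq v4 kit, which does not mark strand. The deposited files hold raw whole-number counts of reads, 1 value a gene, made by the authors with STAR 2.7 and HTSeq 0.11.1 on GRCm38 (mm10), per the submitters' processing notes. No source used here gives the strand setting. All 55450 rows matched GENCODE M21, which supplied coordinates and exon lengths. The closing summary lines were not used: reads outside genes were 15.96% to 19.99%, ambiguous reads 5.771% to 6.501% and reads aligned to several places 6.541% to 6.985% of a library.

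Counts were analysed with edgeR 4.0.16, limma 3.58.1 and DESeq2 1.42.0 in R 4.3.3. The default filter of edgeR (minimum count 10) left 18297 genes, and trimmed mean of M-values (TMM) factors were 0.947 to 1.05. The two-sided quasi-likelihood test used group alone, or pool with group as a term, with Benjamini-Hochberg adjustment over all tested genes and a threshold of 0.05. SEs and 95% intervals were derived from the fold change and the F statistic. CPM and RPKM use TMM-scaled library sizes, and log2 values of single libraries a prior count of 2. Alternatives were other scalings, filters, tools and lengths, the replicate block and leaving out each library. The test scripts were tested on simulated data at an adjusted p of 0.05. The agonist test by group alone recovered 0 of 63 2-fold, 1 of 64 4-fold and 14 of 60 8-fold changes, with 0 false calls. With the pool as a term it recovered 16 of 63, 40 of 64 and 44 of 60, with 10 false calls. The pool test recovered 10 of 64, 41 of 62 and 45 of 57, with 3 false calls. Figures used matplotlib 3.10.9 with Python 3.11.15.

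Pairing comes from the protocol, which divides each pool between wells, and the shared numbers in the titles. The deviations of same-numbered libraries from the means of their groups had a Pearson r of 0.288 over 18297 genes, which are not independent.

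All 10 members are named. From each list of other genes, up to 3 with the smallest p in the agonist comparison and up to 2 with the highest level were eligible, and genes named beyond these, such as Prkd1, Slc5a8, Ffar3 and Slc16a1, were chosen after their values were seen. Mideas was matched as Elmsan1 through RefSeq synonyms. The members and lists were chosen with earlier results of these data known.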

Additional observations from a re-analysis of the deposited data

Results flagged for a closer look

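In 6 genes the difference of agonist minus control (log2 CPM) pointed in opposite directions in the pools, with 1 pair of wells per pool, so the difference between the pools was not tested. The values in pool 2 and pool 3 were -0.15 and 0.02 for Hdac1, -0.17 and 0.20 for Hdac3, -0.36 and 0.20 for Hdac8, 0.29 and -0.37 for Hdac5, -0.34 and 0.17 for Hdac7, and -0.83 and 0.19 for Hdac6. Opposite directions were seen in 51.1% of all tested genes.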

How the results depend on the processing

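No member was called in the agonist comparison under any of the 11 alternatives, and the lowest edgeR, DESeq2 or limma adjusted p was 0.9992. Over all genes the count of 0 became 9 with no filter, 7 in DESeq2, 1 with the replicate block, and 0 to 2 when each library was left out. In the fit with the block Hdac2 had a log2 fold change of 0.56 (edgeR unadjusted p = 0.152), and no member's call changed. When each library was left out, the log2 fold change ranged from -0.25 to 0.14 for Hdac1, -0.21 to 0.27 for Hdac3, -0.23 to 0.084 for Hdac8, -0.20 to 0.22 for Hdac5, -0.43 to 0.37 for Hdac7, -0.39 to 0.20 for Hdac9, -0.42 to -0.018 for Hdac4, -0.87 to 0.26 for Hdac6 and -0.91 to 0.046 for Hdac10. These fits leave the pools unequal between the groups. With the stricter filter Hdac5 turned to 0.022. In the pool comparison the 72 calls over all genes became 5 with total counts only, 600 with no filter, 170 with the stricter filter, 706 in DESeq2, 275 in limma-voom, 5 with no term for treatment and, with that term dropped, 841 without control replicate 2, 1 without control replicate 3, 1575 without agonist replicate 2 and 10 without agonist replicate 3. Among the members the count was 0 to 1 when each library was left out and 0 otherwise. The pool difference of Hdac8 turned to 0.0097 with DESeq2 size factors, 0.0018 with no filter, 0.0098 in DESeq2, and 0.18 and 0.073 without control replicate 2 and control replicate 3. That of Hdac5 turned to -0.079 with total counts only, -0.055 with the stricter filter, -0.0047 in limma-voom, and -0.13 and -0.21 without the same libraries. The cause was not tested. Class I made up 81.3% of the summed level on average, 84.5% with coding length. Counting error was 0.956% to 7.29% of a member's count, if reads are taken as independent, which amplified reads need not be.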
